A study of Mus musculus with 23 samples.

Results

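Pou5f1, Nanog and 5 transcription factors of naive pluripotency (Esrrb, Klf2, Klf4, Tfcp2l1 and Zfp42) were followed through 36 h of aggregate culture in mouse epiblast-like cells. These 7 genes were taken by name from the array's annotation, with the 12 probe sets that name 1 of them alone, out of 18194 named genes and 34958 such probe sets. Pou5f1 and Nanog are called the core factors here and the other 5 the naive factors. The cells were derived from male C57BL/6 embryonic stem cells kept in 2 kinase inhibitors with LIF and then brought to the epiblast-like state with Activin A, bFGF and serum replacement. One line was Wnt3(+/+), called WT, and one Wnt3(-/-), called KO, and both carried the BV transgene, membrane-targeted Venus driven by Blimp1 regulatory elements. All aggregates grew in medium with 15% serum replacement and LIF, so no condition lacked LIF. They received no added cytokine, BMP4 at 500 ng/ml or WNT3A at 50 ng/ml, and KO aggregates also BMP4 with WNT3A. There were 23 Affymetrix mouse genome arrays, 1 for each line, condition and time (12, 24 and 36 h) and 1 for each line at 0 h. Each genotype is 1 line, so genotype and line cannot be told apart.

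Pou5f1 (OCT4) and NANOG belong to the transcription factor circuit that keeps embryonic stem cells and epiblast cells pluripotent. The naive factors are expressed beside this core in the preimplantation epiblast and in embryonic stem cells. Several of them maintain self-renewal there, some downstream of LIF or of relief from TCF7L1 repression by WNT signals. The naive factors decline as cells pass to the primed state of the postimplantation epiblast, in which Pou5f1 stays on. BMP4 and WNT3 are the embryonic signals that direct epiblast cells to mesoderm or to germ cell fate, and Blimp1 marks the latter.

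Signals are given as the deposited linear intensities. They differ between probe sets for reasons other than abundance, so only changes of a probe set are compared. The median of an array lay between 36.8 and 41.4. Precision is limited by how few arrays there are. Of 8 embryonic and epiblast markers all 8 exceeded the array median on at least 3 arrays, as did 4 of 7 fibroblast and 4 of 8 endoderm markers. So did 7 of 8 trophoblast and 5 of 6 neural ectoderm markers, with Elf5 and Zic1 above the array median on 0 arrays. Of the fibroblast markers Col1a2 and Thy1 exceeded it on 23 arrays, Col3a1 on 22 and Dcn on 14, and Col1a1, Postn and Lum on 0. Of the endoderm markers Sox17 exceeded it on 23, Gata4 on 22, Amn on 21, Gata6 on 16 and Sox7 on 1, and Afp, Ttr and Apoa1 on 0. The part of such cells in the results was not tested. A ratio of 3' to 5' Gapdh signal, a sign of RNA or amplification quality, was highest on 3 arrays, at 4.03 (WT with WNT3A, 24 h), 2.68 (KO without cytokine, 24 h) and 2.30 (WT without cytokine, 36 h), and at most 1.71 elsewhere. The titles of 6 KO arrays disagree with the array names in their descriptions, which exchange WNT3A alone with BMP4 plus WNT3A. Id1, a direct BMP target, read 5480.1, 7591 and 9345 at 12, 24 and 36 h in the libraries titled WNT3A and 186, 256 and 1323 in those titled BMP4+WNT3A, which goes against the titles. They are therefore called "titled WNT3A" and "titled BMP4+WNT3A" throughout, and exchanging the labels exchanges the values of the groups. The arrays measure whole aggregates, in which fewer cells of a type and less RNA per cell cannot be told apart.

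The stretches before the starts of 4 members are printed because Nanog rose and Zfp42 fell with time in WT without cytokine, whereas Esrrb and Tfcp2l1 were both high with added WNT3A. They are the 250 bases before the start given by RefSeq (GRCm38.p6), 5′ to 3′ on the strand of the gene. Capitals mark exact matches, on either strand, to the octamer ATGCAAAT or its first 7 letters ATGCAAA (OCT4), ACAAT (SOX), ATCAAAG (TCF), GGGTGTG (KLF) and AAGGTCA (ESRRB). The 7-letter form, which lies within the octamer, was added after the sequences were seen.
Nanog, chr6:122707239-122707488, plus strand: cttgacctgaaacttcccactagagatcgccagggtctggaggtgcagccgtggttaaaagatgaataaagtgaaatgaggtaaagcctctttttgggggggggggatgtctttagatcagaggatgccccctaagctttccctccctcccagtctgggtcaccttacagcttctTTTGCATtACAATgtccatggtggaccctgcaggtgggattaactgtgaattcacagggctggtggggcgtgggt
Zfp42, chr8:43307010-43307259, minus strand: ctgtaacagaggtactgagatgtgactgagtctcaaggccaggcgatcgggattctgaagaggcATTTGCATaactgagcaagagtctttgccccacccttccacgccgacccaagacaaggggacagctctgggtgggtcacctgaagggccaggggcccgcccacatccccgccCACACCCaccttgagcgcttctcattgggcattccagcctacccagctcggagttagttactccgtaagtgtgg
Esrrb, chr12:86360867-86361116, plus strand: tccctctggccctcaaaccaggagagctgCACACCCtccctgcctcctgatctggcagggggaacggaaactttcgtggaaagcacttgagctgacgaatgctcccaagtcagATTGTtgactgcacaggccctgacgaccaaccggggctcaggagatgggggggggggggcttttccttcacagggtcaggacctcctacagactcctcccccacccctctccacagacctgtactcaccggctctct
Tfcp2l1, chr1:118627695-118627944, plus strand: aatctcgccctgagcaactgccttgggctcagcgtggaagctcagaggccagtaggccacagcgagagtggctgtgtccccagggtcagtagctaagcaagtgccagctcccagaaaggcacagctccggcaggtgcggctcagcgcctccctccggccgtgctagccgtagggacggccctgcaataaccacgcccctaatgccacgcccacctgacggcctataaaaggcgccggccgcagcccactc
Zfp42 held the full octamer on the opposite strand, its first base 186 bases before the start, and a KLF match 74 bases before it. Nanog held the 7-letter form at 75 bases and a SOX match at 67 bases before the first of its 2 listed starts. Esrrb held a SOX match at 137 and a KLF match at 221 bases before its first start, and Tfcp2l1 held none of the motifs. Klf2, Klf4, the first start of Pou5f1 and the second start of Esrrb held none, and the second start of Pou5f1 had a SOX match at 158 bases. Among all 32851 promoters of the table, cut to the same 250 bases, 1.60% held the octamer, 4.12% its 7-letter form, 27.7% the SOX, 3.21% the TCF, 6.93% the KLF and 4.08% the ESRRB letters. The matches are descriptions of sequence.

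Pou5f1 stayed close to its starting level in almost every culture, and its lowest signals came at 36 h with added WNT3A (probe set 1417945_at). The 0 h arrays read 8780.0 (WT) and 9027 (KO). At 12, 24 and 36 h it read 8599, 9027 and 8659 in WT without cytokine and 8964, 8719 and 7643 in KO without cytokine. With BMP4 the signals were 9542, 8780.0 and 7913 in WT and 9345, 8780.0 and 9345 in KO. The lowest 2 of all arrays were the 36 h arrays of WT with WNT3A, in the series 9153, 9089.6 and 5914, and of KO titled BMP4+WNT3A, in the series 9281, 8964 and 6472. KO titled WNT3A read 9281, 8539.9 and 7804. As a mean across the 7 conditions Pou5f1 was lower at 36 h than at 12 h by 0.30 on the log2 scale (SE 0.07, limma adjusted p = 0.00336). The signals of WT without cytokine and of KO with BMP4 were no lower at 36 h than at 12 h. With the 6 conflictingly titled KO arrays left out the difference was -0.25 (adjusted p = 0.0546) and did not pass. Its probe set stood between the 98.4th and the 99.4th percentile of every array.

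Nanog stood above its 0 h signal on all 21 later arrays, but by different amounts and at different times (1429388_at). Changes from 0 h rest on 1 array per line and carry no test. It read 247 in WT and 218 in KO at 0 h. Without cytokine the WT aggregates climbed through 776, 2369 and 3468 at 12, 24 and 36 h, 14.0 times the 0 h signal at the end. The KO aggregates reached 1067, 1168 and 2006, 9.19 times it. With either cytokine in WT the highest signals came earlier. BMP4 gave 3541, 4329.6 and 1342. WNT3A gave 3236, 1951 and 739. At 12 h Nanog was 4.56 times as high with BMP4 as without cytokine and 4.17 times as high with WNT3A, while at 36 h it was 2.58 times lower with BMP4 and 4.69 times lower with WNT3A. KO aggregates with BMP4 read 1201, 1783 and 1509.7, all within the range of those without cytokine. KO titled BMP4+WNT3A read 3743, 3517 and 1296, again with a fall after 24 h. KO titled WNT3A read 3692, 3591 and 3169 and fell least after 12 h among the conditions with added WNT3A.

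**Figure D1:**
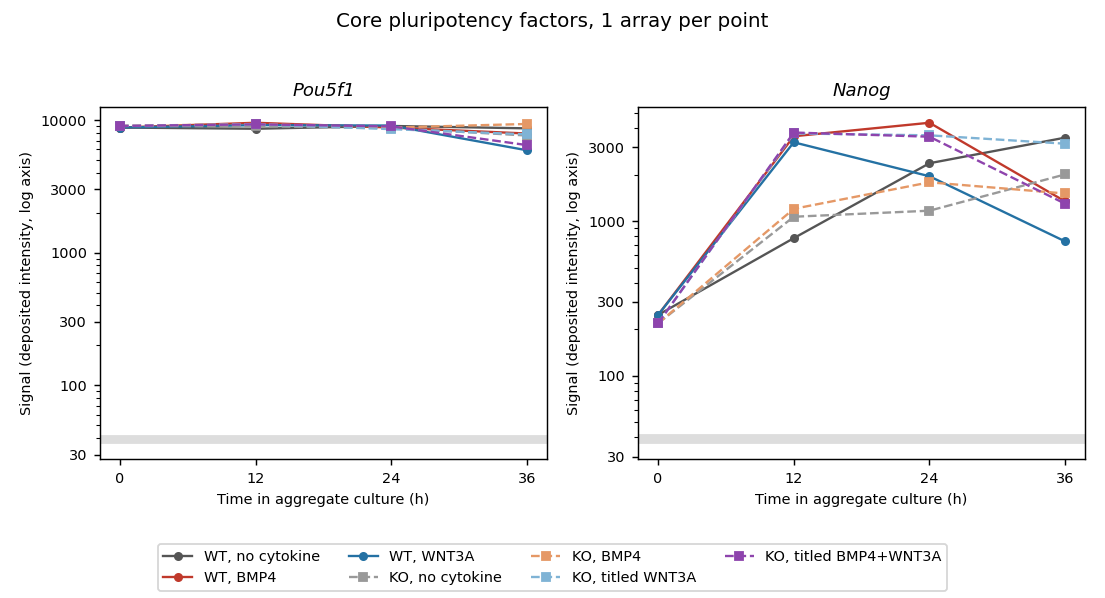
Signal of Pou5f1 and Nanog (deposited intensity, log axis) against hours of aggregate culture, 1 array per point, joined to the 0 h array of the same line. The grey band spans the medians of the arrays. Nanog without cytokine in WT ends at 3468, above WT with BMP4 at 1342 and with WNT3A at 739, after starting below both at 12 h, whereas Pou5f1 stays between 5914 and 9542.

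Slopes over the 3 times, in log2 units per 12 h, put these courses to a test in a second model with a straight line per condition and 1 shared curvature. The slopes against 0 and the slopes between conditions with and without cytokine were compared after the courses had been seen, so they describe a pattern already noticed. Without cytokine in WT, Nanog rose by 1.01 ± 0.20 (SE) per 12 h (limma adjusted p = 0.0137). Its slope in KO was 0.40 ± 0.20 (adjusted p = 0.28), and the difference of the lines, -0.61 ± 0.28, did not pass (adjusted p = 0.519). In WT the slope was lower with BMP4 than without cytokine by 1.80 ± 0.28 (adjusted p = 0.0228) and lower with WNT3A by 2.13 ± 0.28 (adjusted p = 0.0103). In KO the difference was -1.22 ± 0.28 for titled BMP4+WNT3A (adjusted p = 0.0654) and -0.55 ± 0.28 for titled WNT3A (adjusted p = 0.752). Without the 3 arrays of highest Gapdh ratio, 1 of which is WT without cytokine at 36 h, these 3 calls of Nanog in WT were lost (adjusted p = 0.234, 0.0951 and 0.125), with slopes of 0.97, -1.76 and -2.10.

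Zfp42 (Rex1), a naive marker gene, stood below its 0 h signal on all 21 later arrays, where Nanog stood above its own (1418362_at). It read 516 in WT and 491 in KO at 0 h. Without cytokine it fell through 201, 150.1 and 114 in WT and 237, 159.8 and 118 in KO, ending 4.53 and 4.17 times below 0 h. With WNT3A in WT it read 391, 258 and 156. KO titled WNT3A read 385, 249 and 269 and KO titled BMP4+WNT3A 383, 231 and 211. With BMP4 the signals were 267, 162 and 159 in WT and 335, 195 and 185 in KO. Every array with a cytokine exceeded the array of the same line and time without one. Over all conditions Zfp42 was lower at 36 h than at 12 h by 0.98 on the log2 scale (SE 0.09, limma adjusted p = 6.56e-07). Pou5f1 and Zfp42 were the 2 of 6 tested members that fell with time, where 20.9% of all genes tested fell.

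Esrrb, an orphan nuclear receptor that sustains self-renewal of naive cells, separated the cultures with added WNT3A from the others. Its probe set 1436926_at read 124 in WT and 158 in KO at 0 h. Without cytokine the signals were 72.5, 102 and 108 in WT and 103, 74.5 and 81.6 in KO. With WNT3A in WT they were 391, 249 and 296. KO titled WNT3A gave 333, 231 and 372 and KO titled BMP4+WNT3A 465, 333 and 345. All 9 of these arrays exceeded the 6 without cytokine, the lowest of the 9 being 231 and the highest of the 6 being 108. BMP4 in WT gave a single raised value at 12 h in 205, 95.0 and 62.7, and BMP4 in KO gave the lowest ones, 59.7, 39.4 and 61.4.

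Tfcp2l1, a LIF and WNT target that supports naive self-renewal, was high in the same cultures and also late in WT without cytokine (1418091_at). Its 0 h signals were 24.4 (WT) and 40.5 (KO), within or below the range of array medians. WT without cytokine gave 32.9, 86.8 and 465, the last being 19.0 times the 0 h signal. KO without cytokine stayed at 27.5, 32.7 and 30.1 and KO with BMP4 at 24.6, 29.9 and 38.6, all within or below the range of array medians. With WNT3A in WT it read 206, 446 and 239. KO titled WNT3A read 135, 189 and 239 and KO titled BMP4+WNT3A 236, 605 and 331. BMP4 in WT gave 69.6, 181 and 113, above KO without cytokine and below WT with WNT3A at each time. The WNT target Sp5 read 27.5, 181 and 3541 in WT without cytokine and 27.3, 26.0 and 24.8 in KO without cytokine. Whether WNT signals had a part in the late Tfcp2l1 signal was not tested. The last WT value of both genes comes from the 36 h array, among the 3 of highest Gapdh ratio (2.30). The slope of Tfcp2l1 in WT, given below, did not pass without those arrays.

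Klf2, a Krüppel-like factor of the naive circuit, stood above its 0 h level in most cultures and was lowest with BMP4 (1448890_at). Its 0 h signals were 61.8 (WT) and 48.2 (KO). Without cytokine it read 201, 304 and 252 in WT and 186, 179 and 97.0 in KO. With WNT3A in WT it read 596, 734 and 286. With BMP4 it read 195, 54.6 and 77.7 in WT, below the culture without cytokine from 24 h, and 64.9, 23.8 and 28.1 in KO, below it at every time. KO titled BMP4+WNT3A stayed high at 474, 375 and 439.6, whereas KO titled WNT3A, in which Id1 was high, read 202, 124 and 280.1. Klf4, a second Krüppel-like factor, was not tested. Its probe sets read from 5.74 to 55.7 (1417395_at) and from 6.50 to 35.8 (1417394_at), and they exceeded the array median on 1 and on 0 of 23 arrays. The exception was KO titled BMP4+WNT3A at 36 h. Without detection calls, a dim signal says nothing of absence.

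**Figure D2:**
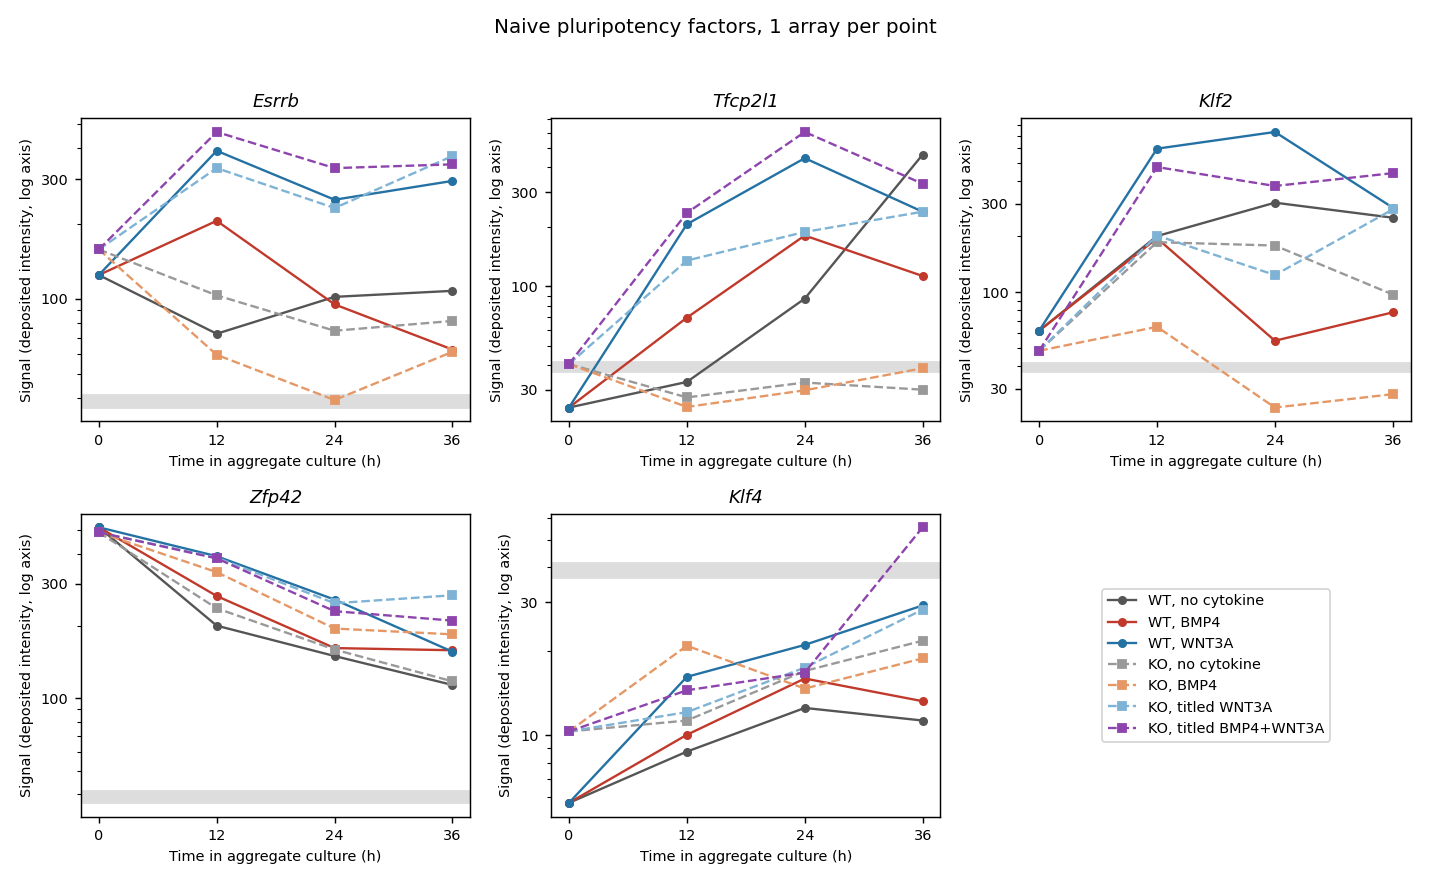
Signal of the 5 naive factors (deposited intensity, log axis) against hours of aggregate culture, 1 array per point, with the grey band over the medians of the arrays; Klf4 is shown by 1417395_at. Esrrb lies at or above 231 in all 3 conditions with added WNT3A and at or below 108 without cytokine after 0 h, Zfp42 lies below its 0 h signal on every later array, and Klf4 exceeds the band on 1 array.

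Slopes without cytokine passed for some naive factors and not for others, and slopes were not compared between genes. In WT, Tfcp2l1 rose by 1.58 ± 0.28 log2 per 12 h (limma adjusted p = 0.00721) and Zfp42 had a slope of -0.45 ± 0.11 (adjusted p = 0.0377). Esrrb (0.18 ± 0.12) and Klf2 (0.05 ± 0.30) did not pass, nor did Pou5f1 (0.02 ± 0.07). With Nanog, 2 of 6 members thus rose and 1 fell, against 2.67% and 1.5% of all genes tested. In KO the 1 member with a slope that passed was Zfp42, at -0.51 ± 0.11 (adjusted p = 0.0306), where 1.58% of all genes fell. The slope of Tfcp2l1 was lower in KO than in WT by 1.56 ± 0.39, which did not pass over all genes (adjusted p = 0.202). Of the 6 members 0 differed between the lines in slope by limma, 2 at an unadjusted p under 0.05, where 0.189% of all genes differed. With the 3 arrays of highest Gapdh ratio left out, the slope of Tfcp2l1 in WT was 0.50 (adjusted p = 0.685) and that of Zfp42 -0.18 (adjusted p = 0.711), and both calls were lost. With the 6 conflictingly titled arrays left out, the slopes of Zfp42 did not pass in WT (adjusted p = 0.0833) or KO (0.0718). Over 13 alternatives the Zfp42 slope in WT held in 5 and was lost in 8, and that in KO held in 10 and was lost in 3. With BMP4 in WT the slopes of 2 members were lower than without cytokine, Nanog and Esrrb (by 1.02 ± 0.17, adjusted p = 0.035), against 0.385% of genes, and with WNT3A the slope of 1 member, Nanog, against 0.355%. The Esrrb slope did not pass with the 3 arrays of highest Gapdh ratio left out (-1.57, adjusted p = 0.0703) or the 6 conflictingly titled ones (adjusted p = 0.0727). By the other probe sets of Esrrb this slope difference was -0.82 ± 0.23 (1441921_x_at) and -0.25 ± 0.28 (1422986_at). Neither passed (limma adjusted p = 0.204 and 0.839). For titled WNT3A and titled BMP4+WNT3A in KO 0 of 6 slopes passed, 0 and 1 at an unadjusted p under 0.05, against 0.0528% and 0.981% of genes.

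Mean differences over the 3 times were then compared between conditions, with time as a block, on the log2(signal + 16) scale after quantile normalization (n = 3 times per condition). The times serve in place of replicates and the spread is pooled over all 7 conditions, so each p sets a difference against how steady it was over time within 1 series of cultures. Changes of dim genes come out too small on this scale. The comparisons of WNT3A and BMP4 in WT share the arrays without cytokine, as do those in KO.

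With WNT3A in WT, 2 of 4 tested naive factors rose as a mean over time, where 0.256% of all genes rose. Of the 2 core factors 0 passed as a mean over time. Esrrb was higher by 1.52 ± 0.26 (SE, limma adjusted p = 0.0255) and Zfp42 by 0.63 ± 0.13 (adjusted p = 0.0471), each at 3 of 3 times. Tfcp2l1 differed by 1.12 ± 0.47 and Klf2 by 0.90 ± 0.38, neither of which passed (adjusted p = 0.301 and 0.301). Tfcp2l1 did pass without the 36 h arrays (2.17, adjusted p = 0.00271) and with the 3 arrays of highest Gapdh ratio left out (1.87, adjusted p = 0.022), in the latter case as the 1 member called. Nanog differed by -0.21 ± 0.57 and Pou5f1 by -0.15 ± 0.11. The means of Nanog and Tfcp2l1 hide opposite signs, since both were above the culture without cytokine at 12 h and below it at 36 h. Neither call held without the 12 h arrays (adjusted p = 0.0911 for Esrrb and 0.294 for Zfp42), without the 24 h arrays (0.792 for both), without the 3 arrays of highest Gapdh ratio (0.0846 and 0.418) or with the 6 conflictingly titled KO arrays left out (0.0999 and 0.116), with differences between 1.21 and 1.70 for Esrrb and between 0.48 and 0.63 for Zfp42.

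In KO, Esrrb, Tfcp2l1 and Zfp42 were higher in both groups with added WNT3A, whichever label holds. For titled WNT3A, 3 of 4 rose, where 3.98% of genes rose: Esrrb by 1.61 ± 0.26, Tfcp2l1 by 2.09 ± 0.47 and Zfp42 by 0.74 ± 0.13 (limma adjusted p = 0.00103, 0.0097 and 0.00209). For titled BMP4+WNT3A, 4 of 4 rose, where 2.96% of genes rose: Esrrb by 1.83 ± 0.26, Tfcp2l1 by 2.95 ± 0.47, Klf2 by 1.32 ± 0.38 and Zfp42 by 0.53 ± 0.13 (adjusted p = 0.000656, 0.00142, 0.0464 and 0.024). Klf2 differed by 0.30 ± 0.38 for titled WNT3A (adjusted p = 0.706), so its call is the 1 that moves to the other group when labels are exchanged. Over 18 alternatives the Klf2 call for titled BMP4+WNT3A held in 7 and was lost in 11. Among the losses was each probe set by itself (limma adjusted p = 0.0519). Nanog differed by 1.32 ± 0.57 and 0.85 ± 0.57 in the order of the groups (adjusted p = 0.173 and 0.435) and Pou5f1 by 0.01 ± 0.11 and -0.07 ± 0.11. For titled WNT3A the Nanog difference passed with array weights (1.55, adjusted p = 0.0237), in a fit of only the arrays compared (adjusted p = 0.0155), with a line per condition (adjusted p = 0.00235) and without the 36 h arrays (1.68, adjusted p = 0.0146). For titled BMP4+WNT3A it passed with a line per condition (adjusted p = 0.0327) and without the 36 h arrays (1.65, adjusted p = 0.021). Whether the core and the naive factors differed in their response was not tested. No call of either group held without the 24 h arrays, with adjusted p between 0.0746 and 0.262, while the differences of the called members stayed between 0.55 and 2.61. Without the 12 h arrays the calls of Tfcp2l1 for titled WNT3A and of Klf2 and Zfp42 for titled BMP4+WNT3A were lost too, and that of Klf2 was also lost without the 36 h arrays. With the 3 arrays of highest Gapdh ratio left out, the Esrrb and Tfcp2l1 calls remained for titled BMP4+WNT3A, while those of Klf2 (1.55, adjusted p = 0.0504) and Zfp42 (0.56, adjusted p = 0.0594) were lost.

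The probe sets of a gene did not all move together. Esrrb 1441921_x_at followed the one used, with differences of 1.38 ± 0.26, 1.80 ± 0.26 and 2.08 ± 0.26 in WT with WNT3A and in the 2 KO groups. Esrrb 1422986_at differed by 0.11 ± 0.24, -0.17 ± 0.24 and -0.18 ± 0.24 in the same comparisons. The other 2 probe sets of Tfcp2l1 exceeded the array median on 0 arrays.

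**Figure D3:**
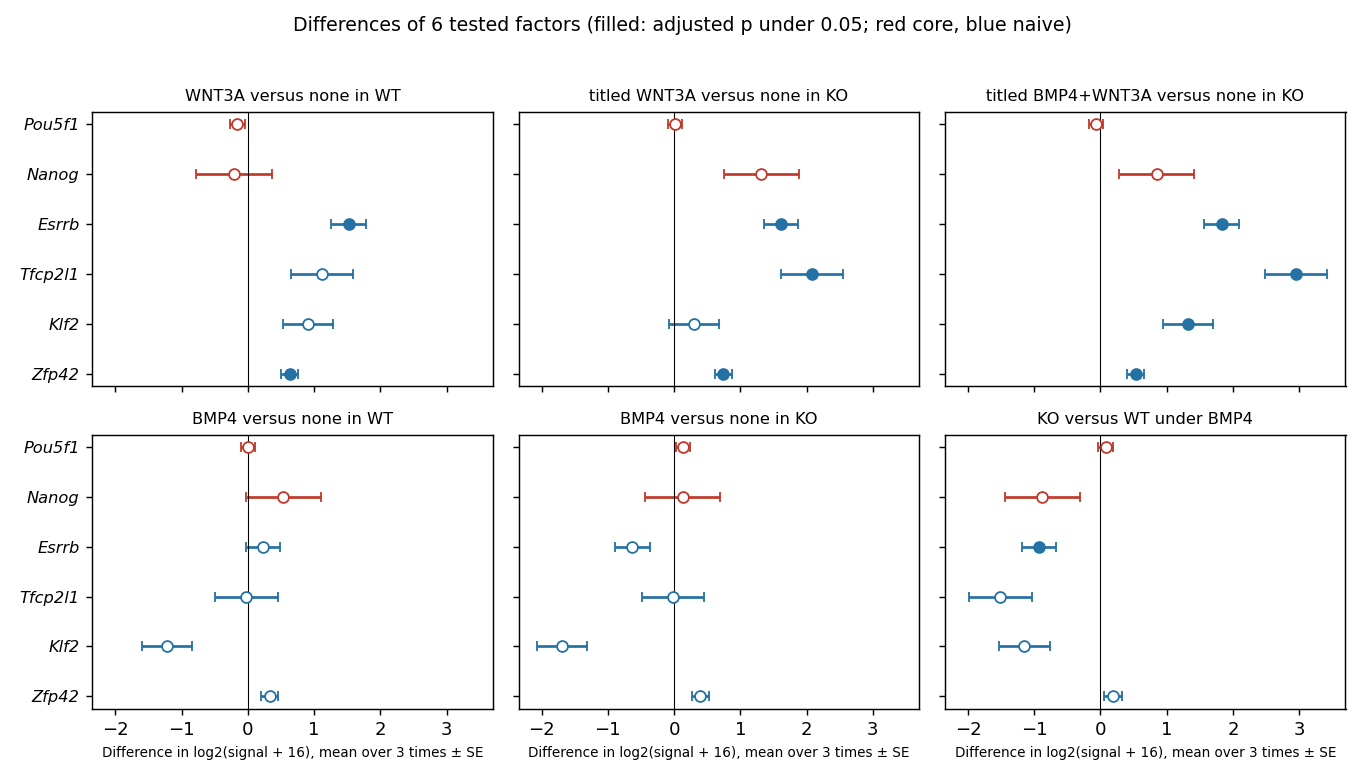
Difference of each of the 6 tested factors in 6 comparisons, as the mean over 3 times of log2(signal + 16) with the standard error of the model; filled points passed an adjusted p of 0.05. The filled points are naive factors: 2 in WT with WNT3A, 3 and 4 in the KO groups with added WNT3A, and Esrrb at -0.93 for KO against WT under BMP4.

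BMP4 moved none of the 6 tested members past the threshold as a mean over time. In WT 0 passed by limma and 2 had an unadjusted p under 0.05, where 3.42% of all genes changed. In KO 0 passed and 3 had an unadjusted p under 0.05, where 0.558% of genes changed. The nearest was Klf2, with -1.22 ± 0.38 in WT and -1.69 ± 0.38 in KO (adjusted p = 0.095 and 0.0553). In KO it passed under 4 of 18 alternatives, with adjusted p down to 3.86e-05 in a fit of only the arrays compared, and in WT under 1, array weights (0.0398). Esrrb in KO passed under 2 of 18, with adjusted p of 0.0339 and 0.0486. In KO the Klf2 signal was 2.87, 7.52 and 3.46 times lower with BMP4 at 12, 24 and 36 h. Esrrb differed by 0.23 ± 0.26 in WT and -0.63 ± 0.26 in KO. Zfp42 differed by 0.33 ± 0.13 and 0.40 ± 0.13. The BMP4 difference of Nanog was 0.54 ± 0.57 in WT and 0.13 ± 0.57 in KO, and that of Tfcp2l1 -0.02 ± 0.47 and -0.01 ± 0.47. The WT means of Nanog and Tfcp2l1 hide opposite signs, above the culture without cytokine at 12 and 24 h and below it at 36 h. Tfcp2l1 in WT was 2.11 and 2.08 times as high with BMP4 at 12 and 24 h and 4.11 times lower at 36 h. The difference between the lines in the BMP4 response passed for 0 of 6 members, 1 at an unadjusted p under 0.05 (Esrrb, -0.86 ± 0.37), and for 0% of all genes.

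Between the lines without cytokine 0 of 6 members differed by limma, 1 at an unadjusted p under 0.05, where 0.0981% of genes differed. The largest difference was that of Tfcp2l1, -1.52 ± 0.47 (adjusted p = 0.217), with signals in KO 1.20, 2.66 and 15.5 times lower at 12, 24 and 36 h. Under BMP4, Esrrb was lower in KO by 0.93 ± 0.26 (adjusted p = 0.0411), 1 of 6 members where 2.95% of genes were lower. The other Esrrb probe sets differed there by -1.02 ± 0.26 (1441921_x_at, limma adjusted p = 0.03) and 0.26 ± 0.24 (1422986_at, adjusted p = 0.629). Without cytokine 1422986_at was higher in KO by 1.06 ± 0.24 (limma adjusted p = 0.113), against a difference of -0.07 ± 0.26 for the probe set used. Tfcp2l1 (-1.51 ± 0.47) and Klf2 (-1.15 ± 0.38) had adjusted p = 0.0635 and 0.0804, and Nanog (-0.88 ± 0.57) 0.409. Tfcp2l1 passed under 6 of 18 alternatives, among them without the 36 h arrays (adjusted p = 0.00518) and with the 3 arrays of highest Gapdh ratio left out (adjusted p = 0.00182), and Nanog under 2 (adjusted p = 0.027 and 0.0391). The Esrrb call was lost without the 12 h arrays (-0.54, adjusted p = 0.242), without the 24 h arrays (-0.88, adjusted p = 0.378), and when the 3 arrays of highest Gapdh ratio were left out (adjusted p = 0.0686) or the 6 conflictingly titled ones (0.0949). Summed signals of 7 nascent mesoderm markers, which include Mesp1 and Eomes, were 1672 to 11888 in WT with BMP4 against 332 to 362 in KO with BMP4. They were 393 to 2499 in WT and 297 to 363 in KO without cytokine, 1042 to 3029 in WT with WNT3A, 1408 to 4322 in KO titled WNT3A and 1124 to 2384 in KO titled BMP4+WNT3A. Of these 7 markers 6 exceeded the array median on at least 3 arrays and Kdr on 0. The markers were high in the 3 groups with added WNT3A and highest in WT with BMP4, and their part in the results was not tested.

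Ordered by mean normalized log2 signal over the 3 times, neighbouring conditions seldom stood apart. For Pou5f1, Nanog and Zfp42 0 of 6 gaps between neighbours exceeded the larger SD of the pair. For Nanog the means ran from 11.74 ± 0.17 (SD, n = 3) in KO titled WNT3A, through 11.44 ± 0.98 in WT with BMP4, 11.28 ± 0.92 in KO titled BMP4+WNT3A, 10.90 ± 1.05 in WT without cytokine, 10.69 ± 1.15 in WT with WNT3A and 10.56 ± 0.24 in KO with BMP4, to 10.43 ± 0.46 in KO without cytokine. For Esrrb the 3 conditions with added WNT3A (8.54, 8.32 and 8.30) stood above WT with BMP4 (7.005 ± 0.86), and KO with BMP4 (6.08 ± 0.28) below KO without cytokine (6.71 ± 0.26). For Klf2, WT with WNT3A (8.97 ± 0.77) and KO titled BMP4+WNT3A (8.71 ± 0.19) stood above WT without cytokine (8.07 ± 0.24), and KO with BMP4 (5.70 ± 0.56) was lowest. For Tfcp2l1 both KO groups without added WNT3A (5.54 ± 0.07 and 5.52 ± 0.21) had lower means than the other 5. KO without cytokine stood below its neighbour, WT with BMP4 (7.03 ± 0.59). WT without cytokine (7.05 ± 1.61) differed from KO without cytokine by less than its own SD. These SDs hold the changes with time.

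**Figure D4:**
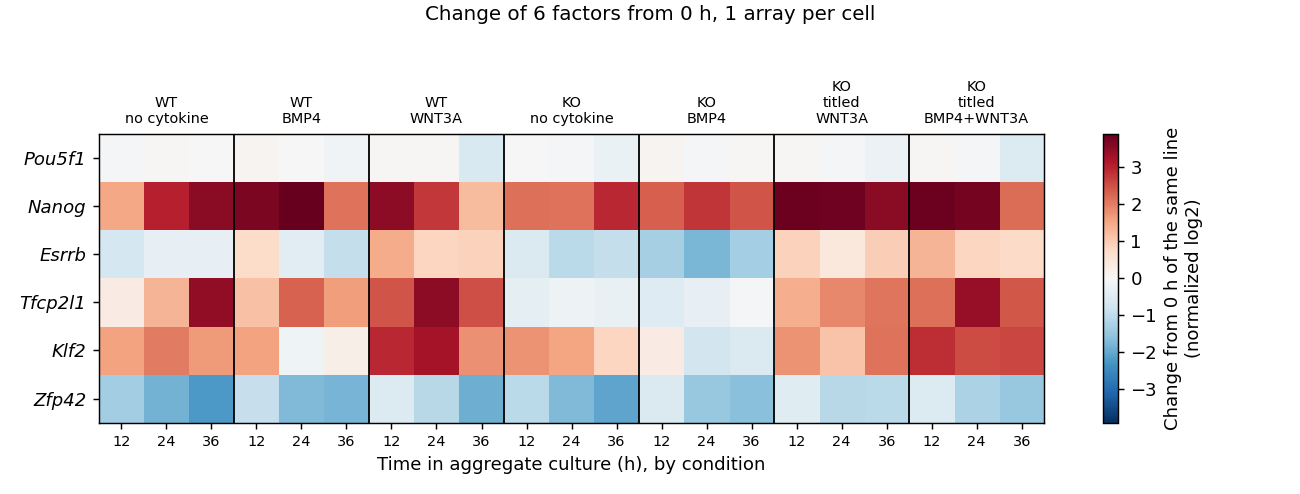
Change of normalized log2 signal from the 0 h array of the same line, for the 6 tested factors (rows) in each condition at 12, 24 and 36 h (columns), 1 array per cell, red higher and blue lower. Nanog is above 0 h in all 21 cells, Zfp42 below it in all 21, and Pou5f1 is the palest row.

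Across the 21 arrays from 12 to 36 h the naive factors Esrrb, Klf2 and Tfcp2l1 followed each other more closely than they followed the core factors. Pearson's r of the normalized log2 signal was 0.78 for Esrrb with Klf2, 0.72 for Esrrb with Tfcp2l1 and 0.62 for Klf2 with Tfcp2l1. For Nanog r was 0.43 with Esrrb, 0.46 with Tfcp2l1, 0.16 with Klf2, 0.32 with Zfp42 and 0.48 with Pou5f1. For Pou5f1 r was -0.17 with Esrrb, -0.11 with Klf2, -0.22 with Tfcp2l1 and 0.47 with Zfp42. Zfp42 had an r of 0.53 with Esrrb and of 0.06 with Tfcp2l1. These arrays share times and conditions, so the values are descriptions. The genes of most similar pattern were Slc26a6 (r = 0.92), Lyar and Arhgap22 for Pou5f1, and Nefl (0.84), Eomes (0.82) and Card10 (0.79) for Nanog. Eomes encodes a T-box factor of the primitive streak. For Esrrb they were Tex15 (0.87), Ap3b2 and Rab38, for Klf2 Pxdc1 (0.87), Zkscan17 and Supt5, and for Tfcp2l1 Usp3 (0.95), Apela (0.94) and Cnpy1 (0.94). For Zfp42 they were Dppa5a (0.90), Mageb16 (0.88) and Dnmt3l (0.87), of which Dppa5a is itself a pluripotency marker.

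Other genes of the pluripotency circuit did not all go with these members. Of 13 tested among 14 other naive genes, 0 passed in WT with WNT3A (median difference 0.29, all genes -0.01). For titled WNT3A 3 rose and 1 fell (median 0.51), where 3.98% of all genes rose and 5.51% fell. Tbx3, a T-box factor, rose by 1.15 ± 0.25, Dppa5a by 1.09 ± 0.23 and Zfp57 by 0.51 ± 0.15, while Nr0b1, an orphan receptor, fell by 0.97 ± 0.28. For titled BMP4+WNT3A 3 rose (median 0.58), where 2.96% of all genes rose, Gbx2 by 3.19 ± 0.60, Fbxo15 by 0.66 ± 0.18 and Zfp57 by 0.58 ± 0.15. In WT with BMP4, 1 rose, Tbx3 by 1.64 ± 0.25, where 1.44% of all genes rose. With time Dppa5a fell by 1.56 ± 0.15 and Dppa3 by 1.01 ± 0.19, as Zfp42 did, and Gbx2 and Prdm14 rose, 4 falling and 2 rising in all, where 20.9% of all genes fell and 17.8% rose.

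Of 11 other core genes all 11 were tested, and 0 passed in WT with either cytokine. Tdgf1, a NODAL coreceptor, rose in KO with BMP4 (1.17 ± 0.24), titled WNT3A (1.28 ± 0.24) and titled BMP4+WNT3A (1.00 ± 0.24), the 1 of 11 to pass in each, where 0.241%, 3.98% and 2.96% of all genes rose. Under BMP4 4 of 11 were higher in KO than in WT and 0 lower, against 4.28% of all genes higher, led by Fgf4 (3.47 ± 0.69) and Sox2 (2.20 ± 0.36), the partner of OCT4. Pou5f1 itself differed by 0.08 ± 0.11 there. With time 6 of 11 fell and 0 rose, against 20.9% and 17.8% of all genes, with Dppa2 lower by 3.25 ± 0.23 and Dppa4 by 3.15 ± 0.22.

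Of 13 tested genes of the primed epiblast, 3 fell and 10 did not pass in WT with WNT3A (median -0.81), where 0.226% of all genes fell. For titled WNT3A 7 fell and 6 did not pass (median -1.14), where 5.51% of all genes fell. For titled BMP4+WNT3A 7 fell, 5 did not pass and Lef1, which is also on the list of WNT response genes, rose by 1.09 ± 0.31 (median -0.96), where 3.79% of all genes fell. The medians of all genes lay between -0.02 and -0.01. Foxd3 differed by -2.09 ± 0.36, -1.78 ± 0.36 and -3.03 ± 0.36, and Pou3f1 by -1.64 ± 0.33, -2.59 ± 0.33 and -1.95 ± 0.33. Otx2, a factor of the primed state, differed by -2.27 ± 0.52 and -2.96 ± 0.52 in the 2 KO groups. With BMP4 in WT 6 of 13 fell too, Fgf5 by 2.69 ± 0.50, where 1.98% of all genes fell. In that comparison 0 of the 4 tested naive factors passed as a mean over time. With BMP4 in KO 0 passed.

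Of 9 LIF and STAT3 pathway genes, all in cultures with LIF, 0 passed in WT with WNT3A, 4 rose for titled WNT3A and 3 for titled BMP4+WNT3A, where 3.98% and 2.96% of all genes rose. The STAT3 targets Bcl3 (1.64 ± 0.35 and 1.59 ± 0.35) and Pim1 (1.51 ± 0.30 and 1.77 ± 0.30) were higher in both, as was the receptor subunit Il6st (0.84 ± 0.20 and 0.84 ± 0.20). A list of 10 genes was drawn up as repressors of naive factors, but Dusp6 on it encodes an ERK phosphatase and not such a repressor. Tcf7l1, which represses naive genes in the absence of WNT signals, was lower by 0.90 ± 0.23 for titled BMP4+WNT3A. It was higher by 0.91 ± 0.23 in KO than in WT under BMP4. There 3 of the 10 were higher and 2 lower, against 4.28% and 2.95% of all genes. In all, 3 of the 10 rose, Dusp6 among them (1.73 ± 0.45), and 2 fell for titled BMP4+WNT3A, against 2.96% and 3.79% of all genes. For titled WNT3A the 1 to rise was Dusp6 (2.27 ± 0.45), and 0 of the 10 passed in WT with WNT3A. Of 8 tested WNT response genes 0 passed in WT with WNT3A (median 1.65), where Sp5 without cytokine was itself high at 36 h, 4 rose for titled WNT3A (median 2.08) and 6 for titled BMP4+WNT3A (median 3.21), against the same 3.98% and 2.96%. Of 7 BMP response genes 6 rose with BMP4 in WT, 5 with BMP4 in KO, 6 for titled WNT3A, and 0 for titled BMP4+WNT3A, where Id2 fell by 1.05 ± 0.26. Of all genes 1.44%, 0.241%, 3.98% and 2.96% rose in these comparisons. Among 7 germ cell determinants 1 rose and 2 fell for titled WNT3A and 2 rose and 1 fell for titled BMP4+WNT3A, against 3.98% rising and 5.51% falling of all genes in the former and 2.96% and 3.79% in the latter. Tfap2c rose in both (1.89 ± 0.38 and 2.12 ± 0.38), Elavl2 fell in both (-1.35 ± 0.18 and -0.67 ± 0.18), and 0 passed in WT with WNT3A.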

How the data were processed

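Members and gene lists were chosen with earlier results of these data known. Arrays were grouped by sample titles. The authors deposited linear intensity values; the summary of probes into these values is a step not given in the sources used here, and 2.93% of them stand at a floor of 1. Per the labels' protocols, amplified cDNA was labelled with biotin. Probe sets naming several genes (932) or none (9211) of 45101 were left out. Each gene took its probe set of highest mean, and 13256 of 18194 genes exceeded the array median on at least 3 arrays. Quantile-normalized log2(value + 16) was fitted in limma 3.58.1 (R 4.3.3) on 21 arrays, 7 conditions with time as a block (12 residual degrees of freedom), or a line per condition with a shared curvature (6), with Benjamini-Hochberg adjusted p under 0.05 over all genes. Arrays at 0 h enter no test. The model was run on simulated data with known shifts and independent noise. These data held no change with time, so they do not test the use of times as replicates. The genes named are the members, the 3 nearest patterns of each, and up to 4 genes of largest difference per list. Alternatives were other scalings, offsets, filters, probe set rules, variance priors, array weights, samples and time models. Figures were drawn with matplotlib 3.10.9.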

Additional observations from a re-analysis of the deposited data

Results flagged for a closer look

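Nanog moved differently over time with and without a cytokine in WT. The test of the difference in slope gave -1.80 log2 per 12 h for BMP4 against no cytokine and -2.13 for WNT3A against no cytokine. Esrrb differed in slope by -1.02 between BMP4 and no cytokine in WT. These comparisons were added after the courses had been seen, and all share the arrays without cytokine. In the comparison of BMP4 both factors were above the culture without cytokine at 12 h and below it at 36 h. No group has 4 or more arrays of 1 kind, so no single array was set against its group.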

How the results depend on the processing

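Counts below are members called among 6. For WNT3A in WT (2) the count was 1 with array weights, each probe set by itself, no filter or without the 3 arrays of highest Gapdh ratio (Tfcp2l1 there, not Esrrb or Zfp42), and 0 with only the arrays compared, with no replicate block (time left out) or with the 6 conflictingly labelled KO arrays left out. For titled WNT3A (3) it was 4 with array weights, only the arrays compared or linear courses, where Nanog was added, 4 with labels exchanged and 2 with no replicate block. For titled BMP4+WNT3A (4) it was 5 with linear courses, where Nanog was added, and 2 with no replicate block or without the 3 arrays. Settings that lost Klf2 alone, such as each probe set by itself, are not all listed here. For KO against WT under BMP4 (1) it was 3 with linear courses or an offset of 1, 2 with array weights, and 0 with no filter, no replicate block, an offset of 64, only the arrays compared, values as deposited or without the 6 KO arrays. For BMP4 in KO (0) it was 1 with array weights or an offset of 1 and 2 with linear courses or only the arrays compared. It was 1 for BMP4 in WT (0) with array weights and 1 between lines without cytokine (0) with linear courses. Among slopes, WT (3) gave 1 with only the arrays compared and 0 without the 3 arrays. Settings that lost Zfp42 alone there, such as each probe set by itself, are not all listed. KO (1) gave 0 with no filter, only the arrays compared or without the 6 arrays. BMP4 against none (2) gave 1 with each probe set by itself or without the 6 arrays and 0 with no filter, no trend in the prior variance or without the 3 arrays. WNT3A against none (1) gave 0 without the 3 arrays. Titled BMP4+WNT3A against none (0) gave 1 with array weights or without the 3 arrays. The cause of these changes was not tested. Leaving out the arrays of each time gave 0 to 3 for WNT3A in WT, 0 to 4 for titled WNT3A, 0 to 4 for titled BMP4+WNT3A, 0 to 3 for KO against WT under BMP4 and 0 to 1 for BMP4 in WT. The time and slope models could not be fitted without a time, except time without 24 h. Differences turned sign for Nanog with BMP4 in WT without the 12 h arrays (-0.28, range over the 3 omissions -0.28 to 1.52) and for Klf2 with titled WNT3A with array weights (-0.015) and without the 36 h arrays (-0.21, range -0.21 to 0.65). None of these negative values is a call, whereas Nanog with BMP4 in WT passed without the 36 h arrays (1.52, adjusted p = 0.0469). No paired analysis was possible beyond the time block because the labels give no replicate numbers. Dim signal limits Klf4 and the lower values of Tfcp2l1 and Klf2.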
